A study of Mus musculus with 6 samples.

Results

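Cartilage is laid down by chondrocytes, whose differentiation is driven by the transcription factor Sox9 together with its partners Sox5 and Sox6. These cells secrete a matrix of collagen II fibrils that carry collagens IX and XI, filled with aggregates of aggrecan (Acan) held on hyaluronan by link protein (Hapln1). Matrilins and cartilage oligomeric matrix protein (Comp) are adaptor proteins of this matrix that tie collagens, proteoglycans and other components to each other. Several of these genes are also used outside cartilage: Matn2 and Matn4 are the matrilins with the wider tissue distribution, whereas Matn1 and Matn3 are largely restricted to skeletal tissue.

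The genes of this chondrogenic set were followed by name in the gene table of an RNA-sequencing experiment, namely Sox9, Sox5, Sox6, Acan, Hapln1, Comp, Matn1, Matn2, Matn3 and Matn4. Of these 10 genes, 9 had a row among the 23594 genes of the table, and Matn1 is not analysed here. The set was chosen with the genotype difference of its genes already known, Matn4 in particular, so the differences given for these genes are a description and carry no test. The question was whether the higher Matn4 level came together with higher levels of the other cartilage genes.

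The tissue was the apical part of the furcation development region (FDR) of the mandibular first molar, the zone between the future roots, taken by laser capture from frozen sections at PN4.5 (4.5 days after birth). The 3 control libraries were from littermates labelled wild type, and 3 further libraries were from Lhx6-/- mutants, all on the C57BL/6 background. Lhx6 is a LIM homeodomain transcription factor of the dental mesenchyme. The mutants were homozygous for an Lhx6-CreER knock-in allele, so Lhx6 was lost in every cell from the start of development and not only in the tooth. Each library combined tissue of several molars. The sources used here do not tie libraries to animals, so the spread between libraries may be partly technical.

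The libraries held 60132323 to 76157433 estimated counts. Levels are given as CPM, the estimated count per 1000000 of the library total after TMM scaling (which evens out differences in composition), and, where genes are compared with each other, as CPM per kilobase of exon. Lhx6 was at 27.8, 18.2 and 21.9 CPM in the control libraries, and the Lhx6-/- libraries held 12.8, 9.82 and 10.5 CPM. All mutant libraries were below all control libraries, with 48.8% of the control mean left (log2 fold change -1.04, SE 0.16, adjusted p = 0.021 in edgeR's quasi-likelihood test). The values are per gene and do not show which exons the remaining reads came from. The mix of sexes differed between groups. Xist, a marker of female cells picked after its values were seen, was at 411.0 to 792.0 CPM in the control libraries but at 289.7, 0.228 and 0.0537 CPM in the mutant libraries. Genes of the Y chromosome summed to 14.6 to 58.0 CPM and to 55.1 to 92.1 CPM in control and Lhx6-/- libraries. Matn4, Sox5 and Hapln1 are therefore also given below with a Y-linked covariate. This covariate, called the Y-linked sum below, added up the log2 CPM of these genes and not their CPM. The dental epithelium covariate used below was formed in the same way. The Y-linked levels were mostly higher in the mutant libraries, so their covariate cannot be cleanly separated from genotype.

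Matn4 was the most abundant of the 9 genes and stood higher in the mutant. It lies on the minus strand at chr2:164389393-164405160 (mm10). Its level was 78.4, 71.7 and 68.0 CPM in the 3 control libraries and 140.1, 120.4 and 109.5 CPM in the 3 Lhx6-/- libraries. The lowest mutant library was above the highest control library. The means were 72.7 ± 5.28 CPM and 123.3 ± 15.5 CPM (SD, n = 3 each), a log2 fold change of 0.76 (SE 0.09), or 1.70-fold.

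At the start of Matn4 another gene runs the opposite way. Rbpjl, which codes for a DNA-binding relative of the Notch effector Rbpj, lies on the plus strand, and its exons share 149 bases with exons of Matn4. The window at the Matn4 start is shown because it holds some of these bases, from which reads could have come from either gene where strand was not used in counting. The window runs from 250 bases before to 50 bases after the Matn4 start (RefSeq, GRCm38.p6, chr2:164405111-164405410, minus strand). Capitals mark the 25 bases that belong to an exon of Matn4 and to an exon of Rbpjl on the other strand, and the rest of the shared bases lie in the next Matn4 exon and are not printed.
Matn4 start: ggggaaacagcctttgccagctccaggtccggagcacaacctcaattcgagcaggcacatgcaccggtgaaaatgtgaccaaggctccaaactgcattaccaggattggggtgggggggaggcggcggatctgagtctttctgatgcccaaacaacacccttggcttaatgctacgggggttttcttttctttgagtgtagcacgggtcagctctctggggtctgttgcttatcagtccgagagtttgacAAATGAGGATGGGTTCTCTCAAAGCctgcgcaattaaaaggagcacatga

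Of these 300 bases, 275 lie in exons of Rbpjl. The estimates of Matn4 were not whole numbers in any of the 6 libraries (tolerance 0.01), and those of Rbpjl were whole in 1 of 6, whereas Sox9, Sox5, Sox6, Acan, Comp, Matn3 and Hapln1 had whole estimates in 6 of 6 libraries. Rbpjl was at 4.90, 4.67 and 3.64 CPM in control and at 8.41, 11.0 and 7.89 CPM in Lhx6-/- libraries. It rose by a log2 fold change of 1.05 (SE 0.18, adjusted p = 0.0292, edgeR), and no mutant library overlapped the controls. Without control replicate 2 or 3, or without Lhx6-/- replicate 1 or 2, its adjusted p was 0.0514 to 0.193, while its log2 fold change stayed between 0.89 and 1.1. Its adjusted p was 0.141 with the Y-linked sum and 0.194 with the summed dental epithelium markers as a covariate, at log2 fold changes of 0.89 and 1.22. Per exon length, Matn4 was 17.0 to 20.7 times the level of Rbpjl in control libraries and 12.1 to 18.5 times in mutant libraries. How reads were shared between the pair is not stated, and its part in either difference was not tested.

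**Figure D1:**
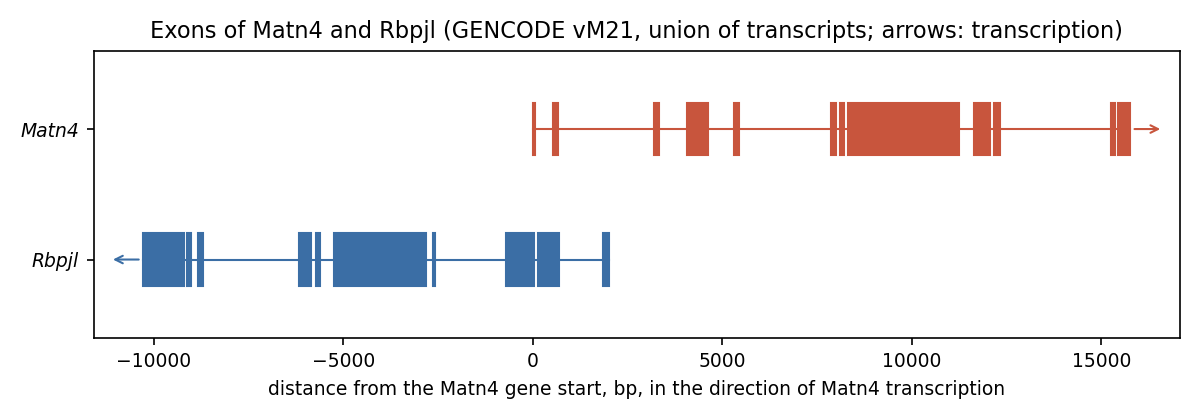
Exons of Matn4 (upper row) and Rbpjl (lower row) as boxes, against the distance in base pairs from the Matn4 gene start, with arrows for the direction of transcription. The first Matn4 exons fall where Rbpjl has exons on the other strand, with 149 exon bases shared.

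The other matrilins did not show the Matn4 difference. Matn2 (chr15:34306677-34436273), a matrilin of many connective tissues, was at 29.7, 35.1 and 24.7 CPM in control libraries and at 31.8, 28.3 and 34.8 CPM in Lhx6-/- libraries. The groups overlapped throughout, with means of 29.8 ± 5.22 and 31.6 ± 3.24 CPM and a log2 fold change of 0.08 (SE 0.12). Matn3 (chr12:8947929-8972028), a matrilin of growth plate cartilage, was close to the limit of detection. It had 18, 26 and 4 estimated counts in control libraries, or 0.289, 0.389 and 0.0676 CPM, and 14, 9 and 11 estimated counts in Lhx6-/- libraries, or 0.229, 0.121 and 0.148 CPM. The single control library with 4 counts lay below the mutants and the other two controls reached above them, so the log2 fold change of -0.59 had an SE of 0.80. A difference of Matn3 was not detectable at this depth.

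Because Matn4 made up most of the matrilin signal, the family sum followed it. The 3 matrilins together were at 92.7 to 108.4 CPM in control libraries and at 144.4 to 172.2 CPM in mutant libraries, and Matn4 contributed 70.7% and 79.5% of the respective means. The ratio of Matn4 to Matn2 per exon length was 3.19, 2.47 and 3.34 in control libraries and 5.33, 5.15 and 3.81 in Lhx6-/- libraries, with no overlap between groups.

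The Sox trio split. Sox9 (chr11:112782224-112787760), the master factor of chondrocyte fate, was at 25.5, 28.9 and 28.8 CPM in control libraries and at 31.2, 28.1 and 27.5 CPM in Lhx6-/- libraries. The groups overlapped, and the log2 fold change was 0.06 (SE 0.09). Sox6 (chr7:115470872-116038796), one of its SoxD partners, was at 13.1, 10.8 and 10.7 CPM against 10.6, 11.1 and 11.5 CPM. Again the groups overlapped, with a log2 fold change of -0.06 (SE 0.12).

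Sox5 (chr6:143828425-144781977, minus strand), the other SoxD partner, was the exception. It was at 2.01, 1.53 and 1.44 CPM in control libraries, from 85 to 125 estimated counts, and at 4.06, 4.44 and 3.27 CPM in Lhx6-/- libraries, from 243 to 331 estimated counts. Every mutant library was above every control library. The means were 1.66 ± 0.307 and 3.92 ± 0.601 CPM, a log2 fold change of 1.24 (SE 0.23), or 2.37-fold. Sox5 was nonetheless the scarcer of the SoxD pair: Sox6 exceeded it per exon length by 6.31, 6.89 and 7.23 times in control libraries and by 2.53, 2.41 and 3.40 times in mutant libraries. The summed CPM of the trio, in which Sox9 dominates, ran from 40.6 to 41.3 in control and from 42.2 to 45.8 in Lhx6-/- libraries.

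RefSeq lists a Sox5 start inside the gene, at 143947106, and the window around it (GRCm38.p6, chr6:143947057-143947356, minus strand) is shown for the letters that SOX proteins recognise. Capitals mark ACAAT, a core of SOX binding sites that was searched on both strands.
Sox5 internal start: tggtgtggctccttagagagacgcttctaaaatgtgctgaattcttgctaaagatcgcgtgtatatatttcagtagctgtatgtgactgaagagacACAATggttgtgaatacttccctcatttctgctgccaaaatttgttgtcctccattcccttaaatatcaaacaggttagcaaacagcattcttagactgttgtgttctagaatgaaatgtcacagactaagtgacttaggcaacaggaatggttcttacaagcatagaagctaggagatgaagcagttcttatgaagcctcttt

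The core lies 154 bases before this start. It is a common stretch of letters: 31.0% of 32851 RefSeq start windows of the same length hold it on one strand or the other, and 10.7% hold the longer AACAAT, each of which also counts as an ACAAT. Among the 10 genes, 7 had a window, 13 windows in all, and ACAAT occurred in 5 windows, of Sox5, Sox6 and Hapln1. Neither of the 2 Matn4 windows held ACAAT. Library reads were not assigned to starts, so which start of Sox5 was used is not known. The annotation also has an antisense gene, Sox5os1, that shares 1330 exon bases with Sox5 on the other strand and is not analysed here. Gm44068, a transcript model of unknown type inside the Sox5 locus on the same strand, had 0, 2 and 0 estimated counts in control and 18, 12 and 6 in Lhx6-/- libraries. It shares no exon base with Sox5 and was too low to be tested.

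**Figure D2:**
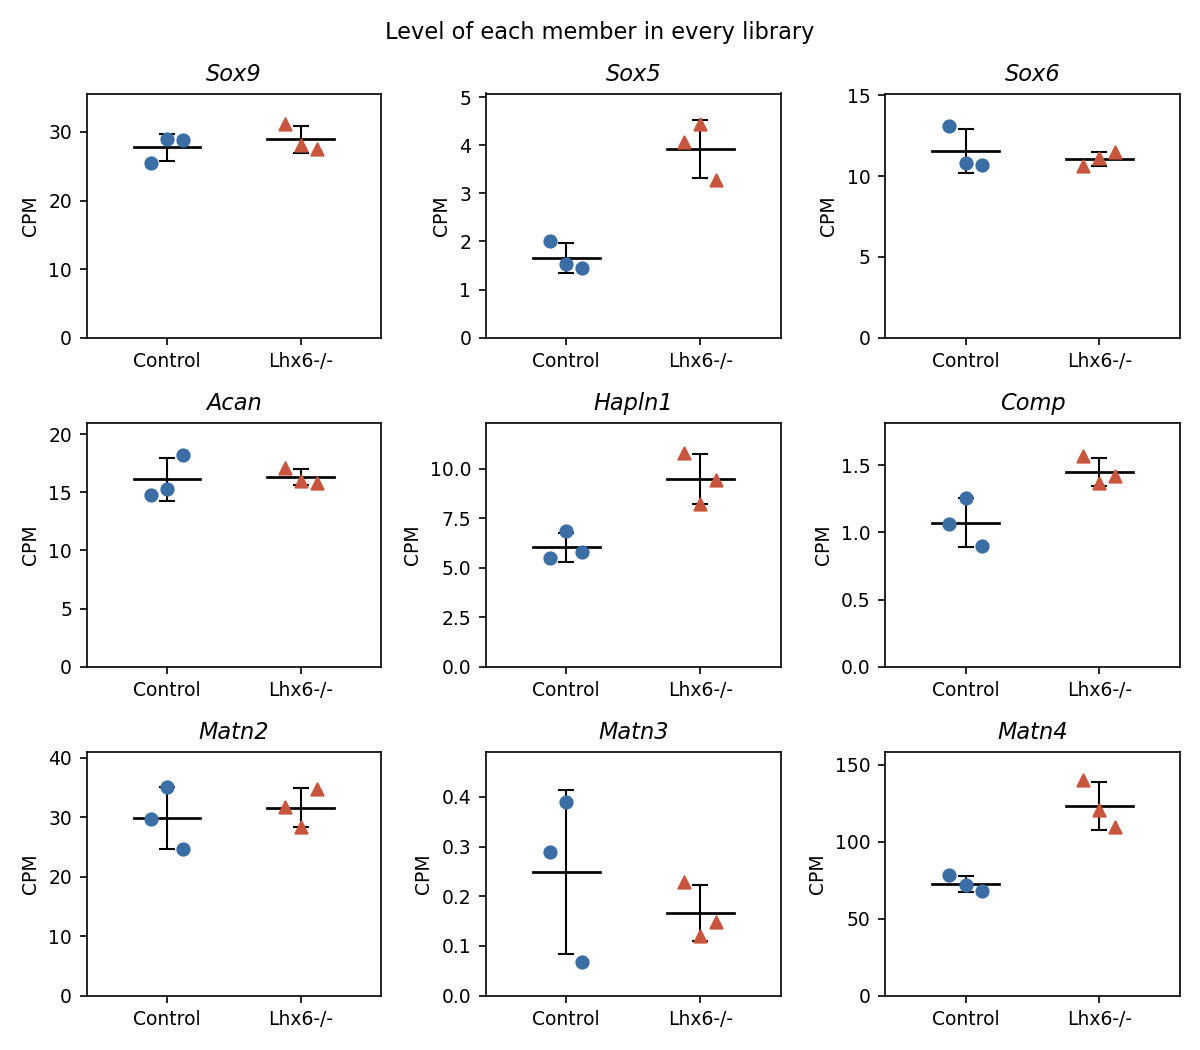
Level in CPM of the 9 genes in each of the 3 control (circles) and 3 Lhx6-/- (triangles) libraries, with the mean as a line and the SD as bars; each panel has its own axis from 0. Sox5, Hapln1, Comp and Matn4 have all mutant libraries above all control libraries, and the other 5 genes overlap.

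The components of the aggrecan aggregate did not move as a unit. Acan (chr7:79053483-79115099), the core protein of the large cartilage proteoglycan, was at 14.8, 15.3 and 18.2 CPM in control libraries and at 17.1, 16.0 and 15.8 CPM in Lhx6-/- libraries. Its mutant values fell within the control range, and its log2 fold change was 0.01 (SE 0.11). Hapln1 (chr13:89539796-89611652), the link protein that fixes aggrecan to hyaluronan, was at 5.48, 6.85 and 5.77 CPM in control libraries and at 10.8, 8.23 and 9.42 CPM in Lhx6-/- libraries. Here the mutants lay above all controls, with means of 6.03 ± 0.725 and 9.47 ± 1.26 CPM and a log2 fold change of 0.65 (SE 0.15), or 1.57-fold. The ratio of Hapln1 to Acan per exon length was 0.467, 0.565 and 0.400 in control and 0.798, 0.652 and 0.753 in mutant libraries.

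The RefSeq start window of Hapln1 was the only one of the 13 windows with TAATTA, a core recognised by LIM homeodomain and many other homeodomain proteins, which 5.29% of all windows hold (the sequence reads the same on both strands). The 30 bases around it (RefSeq, GRCm38.p6, chr13:89540619-89540648, plus strand) are shown with the core in capitals, which begins 5 bases before the RefSeq start. This start lies inside the GENCODE gene, and all 300 bases of its window fall within a Hapln1 exon there.
Hapln1 internal start: gcagttaggctgTAATTAgaggatctggga

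Neither Matn4 window nor the Sox5 window held TAATTA. Comp (chr8:70373558-70382066), a thrombospondin family protein of cartilage and tendon that binds collagen, was scarce. It was at 1.06, 1.26 and 0.896 CPM in control libraries, from 53 to 84 estimated counts, and at 1.57, 1.37 and 1.42 CPM in Lhx6-/- libraries, from 96 to 106 estimated counts. The mutants lay just above the controls without overlap, and the log2 fold change of 0.44 (SE 0.30) did not reach 1.5-fold.

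Ordered by control level per kilobase of exon, the genes ran from Matn4 (14.0 CPM per kb) through Sox9 (6.71), Matn2 (4.76), Acan (2.16), Hapln1 (1.02), Sox6 (0.779), Comp (0.361) and Sox5 (0.115) to Matn3 (0.0825 CPM per kb). Only Sox5 and Matn3 overlapped among neighbours in the control libraries. The order was the same in the mutants, where Matn4 was at 23.8 CPM per kb and Sox5 at 0.273 CPM per kb. When the longest annotated transcript was used as the length, Matn2 passed Sox9 and Sox6 passed Hapln1, so these 2 positions depend on which transcripts are made. In the control tissue 88.2% of the tested genes with a known exon length were below Matn4 per exon length, against 75.2% below Sox9, 50% below Acan and 8.10% below Sox5. The 9 genes summed to 158.6 to 171.9 CPM in control and 213.3 to 247.4 CPM in mutant libraries. Of the difference between the means, 59.3 CPM, all but 8.64 CPM came from Matn4.

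The study called a gene changed at a fold of at least 1.5 with an unadjusted p under 0.05. By this rule 3 of the 9 genes were higher in the mutant, Sox5, Hapln1 and Matn4, and none was lower. Among all 20114 genes tested, 3.28% were called, 1.58% higher and 1.71% lower. With p adjusted over all tested genes, 2 of 9 passed, Sox5 and Matn4, against 0.403% of all tested genes, 0.323% higher and 0.0795% lower. Groups did not overlap for 4 of 9 genes, all higher in the mutant, where 15.5% of all tested genes did not overlap, 7.86% higher and 7.68% lower. Since the genes were chosen on this contrast, nothing is read from these counts. The median log2 fold change of the 9 genes was 0.08, and that of all tested genes was 0.00. By the same measure 7 genes were above 0 and 2 below.

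With the Y-linked sum as a covariate the log2 fold change was 0.87 for Matn4, 1.40 for Sox5 and 0.52 for Hapln1, the last of which was then under 1.5-fold. Without Lhx6-/- replicate 1, Hapln1 was at 0.55 and also under 1.5-fold, whereas Matn4 was at 0.66 and Sox5 at 1.22.

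The other genes of the cartilage programme that hold no member were examined as 8 cartilage collagens and 20 further cartilage genes. Of the 22 genes with enough counts to be tested, 3 rose by the fold and p rule, Col9a1, Col9a2 and Cnmd, and none fell. Among all 20114 genes tested, 1.58% rose by this rule and 1.71% fell. These lists too were chosen with earlier results of the data known, so the count carries no test. Only Col9a1 had an adjusted p under 0.05 in edgeR, against 3 genes in DESeq2 and 2 in limma-trend. The median log2 fold change of the 22 genes was 0.08, with 16 above and 6 below 0. The 24 genes of these lists with a row summed to 4440 to 5214 CPM in control and 4737 to 4993 CPM in Lhx6-/- libraries, which overlapped fully. Most of this sum was Col11a2, Col11a1 and Col2a1, at control means of 2029, 996.9 and 965.0 CPM. A change of a scarce gene such as Col9a1 or Cnmd could not show in it.

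The 3 genes that rose code for collagen IX chains and for chondromodulin. Col9a1, the α1 chain of the collagen that decorates cartilage fibrils, was at 0.835, 0.943 and 1.07 CPM in control and at 6.89, 4.70 and 3.32 CPM in mutant libraries. The groups were far apart, with a log2 fold change of 2.39 (SE 0.29, adjusted p = 0.00576, edgeR). Its adjusted p was 0.00266 to 0.0475 when single libraries were left out and 0.19 with the summed dental epithelium markers as a covariate. Col9a2, the α2 chain, was at 51.8, 35.1 and 41.9 CPM against 115.5, 90.5 and 75.8 CPM, again without overlap (log2 fold change 1.13, SE 0.20, adjusted p = 0.116, edgeR). Cnmd, an inhibitor of vessel growth made by cartilage and other avascular tissue, was at 1.69, 0.569 and 0.609 CPM against 8.46, 3.05 and 3.47 CPM. Its mutant libraries were also all higher, but spread widely (log2 fold change 2.38, SE 0.57, adjusted p = 0.219, edgeR).

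The collagens that make up the bulk of the list did not follow. Col2a1, the fibril collagen of cartilage, was at 982.3, 768.5 and 1144 CPM in control and at 805.5, 771.9 and 694.2 CPM in mutant libraries, a log2 fold change of -0.35 (SE 0.13, adjusted p = 0.391, edgeR). The groups overlapped, and with the Y-linked sum as a covariate the sign turned (0.08). Col11a2 and Col11a1, chains of the fibril-nucleating collagen XI, differed by 0.03 (SE 0.09) and 0.08 (SE 0.08) on the log2 scale. Col9a3, the remaining collagen IX chain, differed by 0.10 (SE 0.13). Col27a1 was higher without overlap, though under 1.5-fold, at 278.3 ± 21.6 CPM in control and 320.3 ± 16.3 CPM in mutant libraries. Its log2 fold change was 0.20 (SE 0.08, adjusted p = 0.425, edgeR). Col10a1, the collagen of hypertrophic chondrocytes, was at 1.65, 1.5 and 0.355 CPM against 0.491, 0.591 and 0.779 CPM. It was low and overlapping in both groups (log2 fold change -0.91, SE 0.52, adjusted p = 0.636, edgeR), and without control replicate 3 its log2 fold change was -1.34 and met the fold and p rule.

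Markers used to recognise cartilage ran from near 0 to very high in this tissue. Ihh, the signal of prehypertrophic chondrocytes, had only 28 to 82 estimated counts a library and differed by 0.19 (SE 0.46) on the log2 scale. Ucma and Nkx3-2 were at 0 in at least 1 library and were not tested, and Snorc, Epyc, Cytl1 and Scrg1 are not analysed here. By contrast Col2a1 stood at 104.4 CPM per kb of exon and Col11a2 at 295.1 CPM per kb in the control mean. In each library Col2a1 exceeded Acan per exon length, by 40.5 to 53.5 times in control and by 35.4 to 39.1 times in Lhx6-/- libraries.

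**Figure D3:**
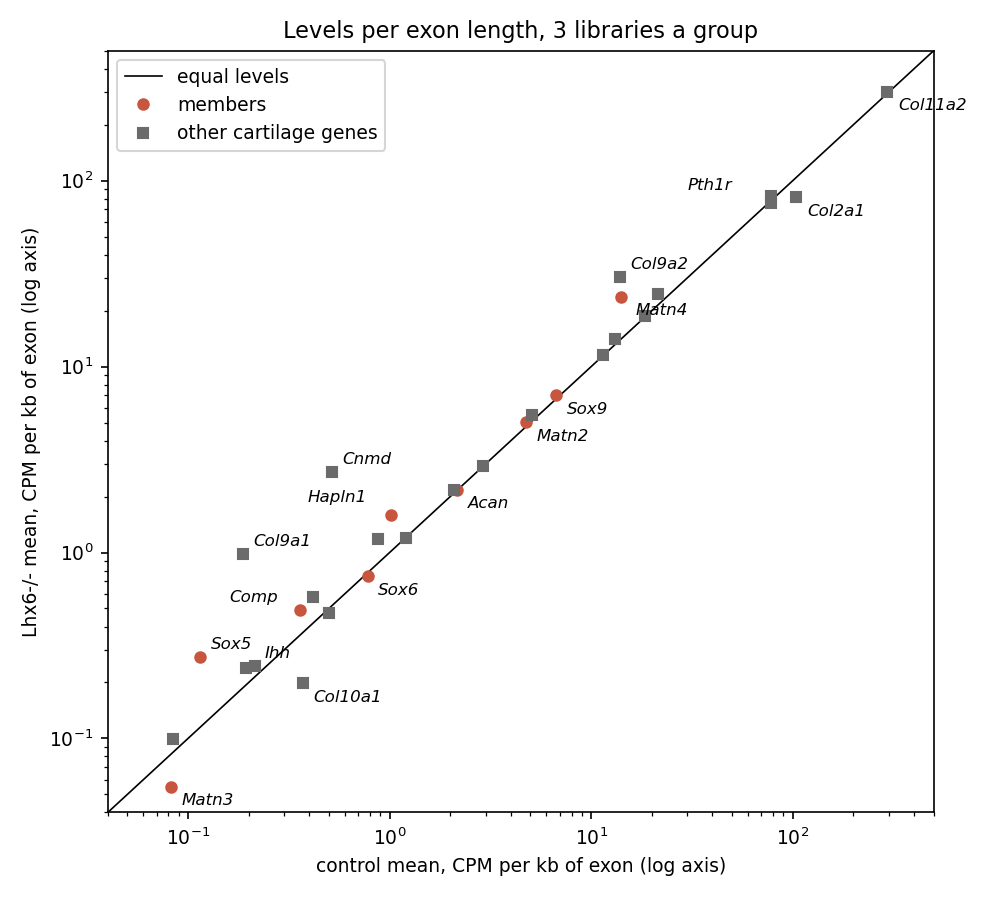
Mean level per kilobase of exon in Lhx6-/- libraries against control libraries for the 9 genes (circles) and the 22 other cartilage genes tested (squares), both axes logarithmic, with the line of equal levels. Matn4 (14.0 and 23.8 CPM per kb), Hapln1, Sox5, Col9a1, Col9a2 and Cnmd lie above the line, and Acan, Sox9, Sox6 and Col11a2 lie on or near it.

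**Figure D4:**
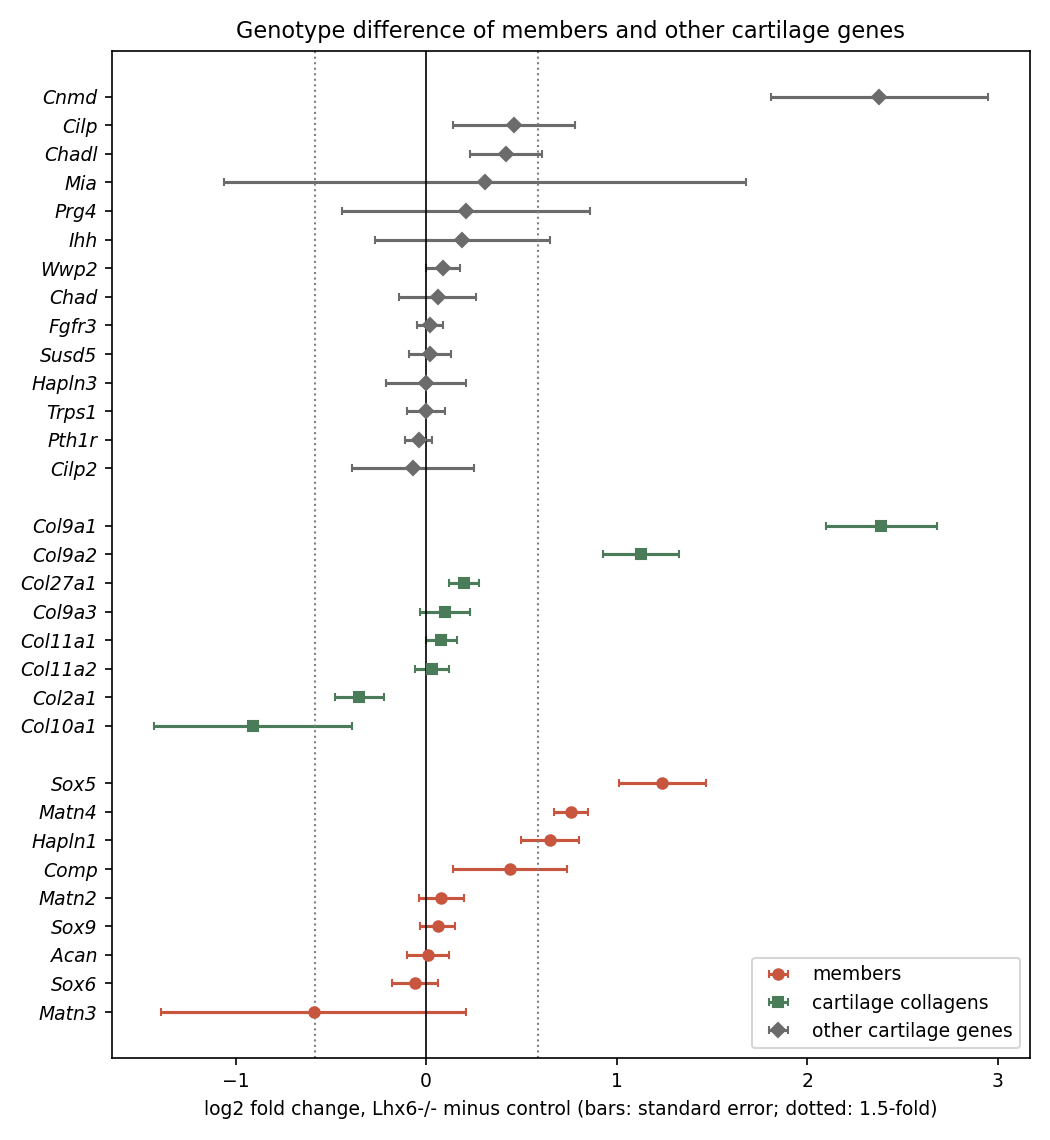
Log2 fold change (Lhx6-/- minus control) with its standard error for the 9 genes (circles), 8 cartilage collagens (squares) and 14 other cartilage genes (diamonds), with dotted lines at 1.5-fold. Matn4 (0.76), Sox5 (1.24), Hapln1 (0.65), Col9a2 (1.13), Col9a1 (2.39) and Cnmd (2.38) lie beyond the upper dotted line, while most others gather near 0.

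Relatives of the members by family were examined in the same fit. Of 13 other Sox genes tested, 2 rose by the fold and p rule and none fell, against 1.58% and 1.71% of all 20114 genes tested. Sox11, a SoxC factor of progenitor cells, was at 10.8, 10.6 and 11.8 CPM in control and at 21.0, 17.4 and 15.2 CPM in mutant libraries (log2 fold change 0.69, SE 0.13, adjusted p = 0.0405, edgeR), and its log2 fold change was under 1.5-fold without Lhx6-/- replicate 1 (0.56) and with the summed dental epithelium markers as a covariate (0.53). Sox7, a SoxF factor of endothelium, had a log2 fold change of 0.63 (SE 0.14, adjusted p = 0.112, edgeR), which was 0.51 without control replicate 1 and 0.41 with the Y-linked sum as a covariate, both under 1.5-fold. None of 9 genes of hyaluronan and its proteoglycans met the rule in edgeR, DESeq2 or limma-trend, and 2 had an unadjusted p under 0.05. Among them Vcan, the versican core protein and a relative of aggrecan, was at 204.7 to 219.0 CPM in control and 239.9 to 290.5 CPM in mutant libraries (log2 fold change 0.35, SE 0.08, adjusted p = 0.148, edgeR). The other, Has3, a hyaluronan synthase, was lower at 11.9 ± 2.38 against 16.5 ± 0.934 CPM (log2 fold change -0.47, SE 0.14, adjusted p = 0.242, edgeR), without overlap. None of the 4 thrombospondins related to Comp and none of 9 proteases known to cut these matrix proteins met the rule by any of the 3 tools, with 1 gene at an unadjusted p under 0.05 in each list. The most abundant were Thbs1 (log2 fold change 0.11, SE 0.21) and Mmp13 (0.20, SE 0.12).

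The 5 genes below had the profiles over the 6 libraries most like that of Matn4, by the root mean square difference of centred log2 CPM among 9479 genes with a mean of at least 10 CPM. They were Nbl1, a secreted antagonist of BMP signals (0.040), Gja4, a connexin of vessel walls (0.065), Tbc1d4, a Rab GTPase-activating protein (0.089), Efnb3, an ephrin ligand (0.090), and Mfap4, a microfibril-associated glycoprotein (0.100). None belonged to the cartilage lists, but Hapln1, Sox5, Comp, Matn3, Col9a1 and Cnmd had a mean under 10 CPM and were not compared. Col9a2, at means of 42.9 CPM in control and 93.9 CPM in Lhx6-/- libraries, was among the genes compared, but its rank is not given here. Like Matn4, it was highest in replicate 1 of each group. Per exon length, Matn4 was 16.3, 11.9 and 13.4 times the level of Hapln1 in control libraries. In Lhx6-/- libraries it was 14.9, 16.7 and 13.3 times that level, overlapping the controls. The ratios of Matn4 to Matn2, Acan and Sox9 did not overlap between groups. Nbl1 was at 114.1, 99.2 and 97.4 CPM in control and 200.8, 183.0 and 158.1 CPM in Lhx6-/- libraries, and like Matn4 it was highest in replicate 1 of each group. Of the members above 10 CPM, Sox9 ranked 2414th in likeness (0.371), Matn2 3394th (0.390), Acan 4265th (0.404) and Sox6 5895th (0.433). These figures describe 6 libraries of 2 groups and carry no test.

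Markers of other tissues in the captured area moved between the groups to differing degrees. As background for these marker lists, 1.58% of all 20114 genes tested rose by the fold and p rule and 1.71% fell. For all 13 dental epithelium markers the log2 fold change was below 0 (median -0.67). Of these, 7 fell by the fold and p rule, Krt14, Krt17, Dsp and Krt5 with the smallest p (log2 fold changes -0.62, -1.03, -0.71 and -0.72), and none had an adjusted p under 0.05 in edgeR, against 4 in DESeq2 and 1 in limma-trend. The summed markers were at 1484 to 2291 CPM in control and 1082 to 1258 CPM in Lhx6-/- libraries. Without control replicate 2, which had the highest sum, Krt14, Dsp and Krt5 were at -0.43, -0.50 and -0.48 and no longer met the rule, nor did Krt14 without Lhx6-/- replicate 1 (-0.57). A covariate was then formed as the sum of log2 CPM of these markers. With it the log2 fold changes were 0.65 for Matn4, 1.11 for Sox5 and 0.77 for Hapln1, all above 1.5-fold. Cnmd was then at 1.0 and no longer met the rule, Col9a2 was at 0.68, Mfap4 at 0.41, and Col2a1 reached -0.70 and met it. The summed marker levels did not overlap between groups, so this covariate cannot be cleanly separated from genotype in 6 libraries. The enamel genes of the dental epithelium, listed apart, showed no such separation. Their sums were 135551 to 145307 CPM in control and 114978 to 146335 CPM in Lhx6-/- libraries (median log2 fold change -0.09). The lower sums therefore describe these 13 markers and not all captured epithelium. The part of the epithelial share in the matrix genes was not tested beyond these values. In bulk tissue, fewer cells of a type and less RNA per cell cannot be told apart.

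Endothelial markers went the other way. All 9 had a log2 fold change above 0 (median 0.24), 1 rose by the rule, Cldn5, the claudin of endothelial junctions (0.64, SE 0.09, adjusted p = 0.014, edgeR; 0.57 and under 1.5-fold with the Y-linked covariate), and the sums were 363.0 to 369.6 CPM in control and 405.6 to 470.8 CPM in mutant libraries. Of 10 nerve and glia markers 3 rose, Cdh19 (1.72, SE 0.31, adjusted p = 0.0377, edgeR), Gfra3 (0.98) and Foxd3 (1.16), but the sums overlapped at 189.5 to 537.9 and 215.4 to 530.7 CPM. Gfra3 did not meet the rule with the epithelial covariate (0.71), nor did Foxd3 with the Y-linked covariate (0.53). Of 10 blood and immune markers 3 fell, Hbb-bs (-0.73), Alas2 (-0.73) and Hba-a1 (-0.82), with sums of 2091 to 2880 against 1242 to 1680 CPM. Hbb-bs did not meet the rule without control replicate 2 (-0.56), Alas2 without Lhx6-/- replicate 2 (-0.55), and Hba-a1 without any one of 4 libraries (-0.57 to -0.88). Of 4 Y-linked genes 1 met the rule, Kdm5d (1.48, SE 0.50), though not without control replicate 1, Lhx6-/- replicate 2 or Lhx6-/- replicate 3 (1.3 to 1.44).

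The connective and mineralised tissue lists held few called genes. Among all 20114 genes tested, 3.28% met the fold and p rule, and nothing is read from the counts in these short lists. The adjusted p of Sox11, Mfap4, Cldn5 and Cdh19 each passed 0.05 when certain single libraries were left out, with highest values of 0.199, 0.119, 0.0941 and 0.2. Of 6 follicle and periodontal ligament markers 1 rose, Mfap4 (0.69, SE 0.11, adjusted p = 0.021, edgeR). None of 7 tendon, 9 osteoblast, 5 odontoblast, 9 muscle and 7 enamel genes met the fold and p rule in edgeR, DESeq2 or limma-trend, with 1, 3, 1, 2 and 1 genes at an unadjusted p under 0.05 in edgeR, and the most abundant of each were Col12a1 (0.10), Bglap (-0.18), Dspp (0.33), Acta1 (0.39) and Amelx (-0.12). Among the enamel genes Amtn was lower at an adjusted p under 0.05. The odontoblast sums did not overlap, at 5549 to 6057 CPM in control and 6693 to 7371 CPM in mutant libraries, and those of tendon (871.0 to 940.3 against 932.8 to 948.5 CPM), osteoblast (8239 to 8559 against 8122 to 8575 CPM), muscle (1420 to 1791 against 1547 to 2304 CPM), follicle (1327 to 1405 against 1363 to 1500 CPM) and enamel genes (135551 to 145307 against 114978 to 146335 CPM) did. The part of any of these tissues in the level of Matn4, Sox5 or Hapln1 was not tested.

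**Figure D5:**
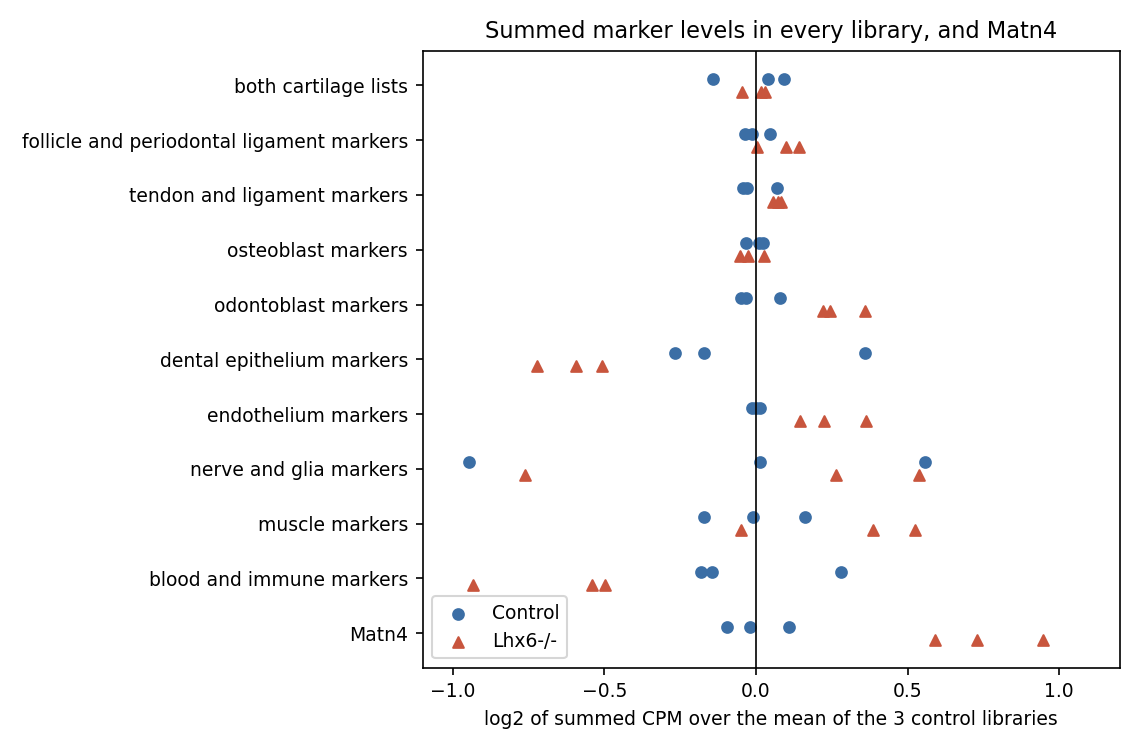
Summed CPM of each marker list, and CPM of Matn4, in each control (circles) and Lhx6-/- (triangles) library as log2 of the ratio to the control mean. The cartilage sums, which are mostly Col11a2, Col11a1 and Col2a1, overlap between groups. The dental epithelium sums are lower in all mutant libraries (1082 to 1258 CPM) than in any control (1484 to 2291 CPM). Matn4 is higher in all mutant libraries.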

How the data were processed

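RNA of 3 control and 3 Lhx6-/- libraries was sequenced as single-end reads of 75 cycles. After trimming and alignment to mm10 by STAR 2.6.1d, the authors deposited estimated counts per gene from Partek, without normalization. The gene counter, its annotation and its use of strand are not given in the sources used here. The authors' comparison table (means, ratios, fold changes, p-values) supplied gene names and coordinates only; its comparison columns were not used.

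The estimates, rounded to the nearest whole count, were fitted with edgeR 4.0.16 (TMM, filterByExpr, robust quasi-likelihood, genotype alone, two-sided, R 4.3.3), with Benjamini-Hochberg adjustment over the 20114 genes that passed the filter. Standard errors were derived from the size of the log2 fold change and the F statistic. In the table every gene reached 10 estimated counts in at least 1 library. P-values measure only the spread between libraries. Exon lengths are unions over GENCODE vM21 transcripts, matched for 23017 of 23594 genes. Start windows are from RefSeq.

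Members and gene lists were chosen with earlier results of these data known. Other genes that overlap Sox5, Sox6, Matn2 or Hapln1 in the annotation are left out. Among them, a gene on the other strand shares 70 exon bases with Matn2. The text names all members, and the cartilage genes that met a threshold plus 8 defining ones. It also names up to 4 called genes of smallest p in each other list (or the most abundant). Rbpjl, Sox5os1 and Gm44068, which overlap a member, Lhx6 and the 5 genes most like Matn4 are named as well. Amtn, Has3, Xist, Col9a3 and Col27a1 were named outside this rule, after their values were seen. Same-numbered libraries did not deviate together. Alternatives were other scalings, filters, covariates, DESeq2 1.42.0, limma 3.58.1, a fold of 2, and each library left out. On simulated counts of 19763 genes for this comparison, 66 of 109 genes changed 2-fold and 83 of 83 changed 4-fold were recovered, with 4 false calls.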

Additional observations from a re-analysis of the deposited data

How the results depend on the processing

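Across 15 alternative fits Sox5 (log2 fold change 1.11 to 1.41) and Matn4 (0.65 to 0.87) met the fold and p rule in every one and Hapln1 (0.52 to 0.77) in 13. The members were chosen on this contrast and every fit draws on the same libraries, so this is no independent support. At a fold of 2, 1 member met it (Sox5), and 350 genes in all. Sox9 ranged from 0.00 to 0.10 and Comp from 0.22 to 0.65, while Sox6 (-0.16 to 0.04), Acan (-0.08 to 0.13) and Matn2 (-0.19 to 0.32) changed sign. The members' median was 0.26 with at least 10 counts in every library, which drops Matn3, and 0.32 with the epithelial covariate. All genes meeting the rule numbered 660, and 1241 with the Y-linked covariate. Leaving out 1 library gave 607 to 968 genes by the rule, 2 to 3 members, 3 to 4 cartilage genes and member medians of 0.08 to 0.22. Genes with an adjusted p under 0.05 numbered 81, 359 with the Y-linked covariate, 11 with the epithelial covariate, 315 by DESeq2 and 12 to 127 without 1 library; the lowest was without control replicate 3. Cartilage genes with an adjusted p under 0.05 numbered 1, 2 with the Y-linked covariate, 0 with the epithelial covariate, 3 by DESeq2 and 2 by limma-trend. Without 1 library they numbered 1 to 3, with Col9a2 and Cnmd added without control replicate 1. With the epithelial covariate 3 cartilage genes met the fold and p rule: Col9a1 and Col9a2 were higher, and Col2a1 was lower. The cause of these shifts was not tested.

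Same-numbered control and mutant libraries had deviations correlated at 0.0256, -0.0288 and -0.0314, so the numbers were not taken as pairs. The numbers are those of the sample titles. In the count table the mutant libraries are numbered one higher, and libraries matched by those numbers were correlated at -0.0616 and -0.00645. The study speaks of pairs of samples without saying which. With the title number as a replicate block, 134 genes and 3 cartilage genes had an adjusted p under 0.05. The depth limits Matn3 above all, at 4 to 26 estimated counts.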
